A study of Mus musculus with 29 samples.

Results

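The genes described here make the lipids that myelin and skin barrier share: 34 genes of cholesterol, fatty acid and galactolipid synthesis. They were chosen by name, with earlier results of these data known. They comprise 18 enzymes of the sterol pathway, 10 of fatty acid synthesis, elongation and desaturation, 3 of galactolipid synthesis (Ugt8a, Fa2h and Gal3st1) and 3 regulators of the pathway (Insig1, Srebf1 and Srebf2). All 34 were found, by symbol among the 24411 genes listed for a time course and by Ensembl identifier among the 55487 listed for a second experiment. All 34 passed the filter on low counts in both, which kept 16084 and 17475 genes.

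The samples were 29 poly(A) RNA-seq libraries in 10 groups, made from the mouse digit of the left hindlimb without its nail. In the time course, animals received spared nerve injury (SNI), a cut through the common peroneal and tibial nerves that leaves the sural branch of the sciatic nerve in place, or a sham operation without the cut, and all had the digit tip amputated 5 days later. Counting days from the amputation, the sham groups were day 7 (3 libraries), day 14 (3 libraries) and day 21 (2 libraries), and SNI had 3 libraries at each of these times. In the second experiment every animal had SNI, so that no group there has an intact nerve supply. It compared digits amputated 5 days after the surgery with digits that were not amputated, at days 7 and 14 (n = 3 each). The unamputated samples carry a tissue tag and a time that speak of regeneration and amputation, and were placed by their treatment label. Strain, sex and age were not stated in the labels. The 2 experiments were deposited as separate tables and were analysed apart, so levels were not compared between them by a test.

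Cholesterol is built from acetyl-CoA through mevalonate, squalene and lanosterol, and its genes are driven together by the transcription factor SREBP-2 (gene Srebf2), while SREBP-1 (Srebf1) drives mainly fatty acid genes. INSIG1 (Insig1) holds both factors back in the endoplasmic reticulum when sterols are plentiful, and its own gene is a target of them. Myelinating Schwann cells make large amounts of cholesterol and of galactosylceramide, which UGT8A makes, FA2H supplies with hydroxylated fatty acids, and GAL3ST1 sulfates to sulfatide. In skin, keratinocytes and sebaceous glands also express most sterol and fatty acid genes, and Fa2h.

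Promoters are shown for 5 members: 2 sterol genes that were not called, the feedback gene Insig1 and the 2 galactolipid genes that were called after amputation. The RefSeq promoter table (GRCm38.p6) held 27 of the 34 members; those without an entry were Fdps, Fdft1, Sqle, Scd1, Scd2, Fads1 and Fa2h. Each sequence runs 5′ to 3′ on the gene's strand, from 250 bases before to 50 bases after the start of the gene. Capitals mark TCACNCCAC, a sterol regulatory element to which SREBP proteins bind, and CCAAT, the box bound by NF-Y, which on the opposite strand reads ATTGG. The windows are chr13:119690101-119690400 (plus strand) for Hmgcs1, chr13:8885356-8885655 (plus strand) for Idi1, chr5:28071162-28071461 (plus strand) for Insig1, chr3:125938603-125938902 (minus strand) for Ugt8a and chr11:3983386-3983685 (plus strand) for the most upstream of the starts of Gal3st1.
Hmgcs1: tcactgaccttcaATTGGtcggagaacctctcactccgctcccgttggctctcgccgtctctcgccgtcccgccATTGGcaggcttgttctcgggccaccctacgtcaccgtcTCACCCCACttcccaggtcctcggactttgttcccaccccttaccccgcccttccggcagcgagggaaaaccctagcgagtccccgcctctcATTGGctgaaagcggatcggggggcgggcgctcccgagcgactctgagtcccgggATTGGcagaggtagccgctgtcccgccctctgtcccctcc
Idi1: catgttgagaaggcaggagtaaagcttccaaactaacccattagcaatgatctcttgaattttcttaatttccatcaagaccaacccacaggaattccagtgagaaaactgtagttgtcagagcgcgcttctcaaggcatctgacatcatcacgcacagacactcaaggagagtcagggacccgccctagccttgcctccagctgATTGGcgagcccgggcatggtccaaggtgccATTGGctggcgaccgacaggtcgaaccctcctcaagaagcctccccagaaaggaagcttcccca
Insig1: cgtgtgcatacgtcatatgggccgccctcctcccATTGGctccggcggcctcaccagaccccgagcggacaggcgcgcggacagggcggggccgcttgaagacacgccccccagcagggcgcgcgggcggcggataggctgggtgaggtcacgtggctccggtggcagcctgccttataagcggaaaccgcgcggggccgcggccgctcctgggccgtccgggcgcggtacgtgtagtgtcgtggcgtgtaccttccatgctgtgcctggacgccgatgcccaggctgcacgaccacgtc
Ugt8a: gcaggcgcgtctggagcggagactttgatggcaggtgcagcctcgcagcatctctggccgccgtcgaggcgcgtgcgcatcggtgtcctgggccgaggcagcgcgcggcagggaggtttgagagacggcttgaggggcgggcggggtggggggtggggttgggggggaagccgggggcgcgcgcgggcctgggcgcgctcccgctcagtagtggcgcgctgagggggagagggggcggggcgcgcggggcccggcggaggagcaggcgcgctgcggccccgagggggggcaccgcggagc
Gal3st1: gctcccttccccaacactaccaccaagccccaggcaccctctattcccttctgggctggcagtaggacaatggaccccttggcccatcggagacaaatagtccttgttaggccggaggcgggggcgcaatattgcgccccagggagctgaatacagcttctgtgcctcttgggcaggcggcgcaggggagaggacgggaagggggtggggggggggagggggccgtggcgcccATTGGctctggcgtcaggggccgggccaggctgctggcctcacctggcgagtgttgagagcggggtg

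A CCAAT box on either strand was present in the promoter of 14 of the 15 sterol genes in the table, against 41.1% of all 27025 genes and 37.4% of all 32851 promoters of that length. It was found in 4 of 7 fatty acid genes (Acly, Fasn, Elovl1 and Elovl5), in all 3 regulators, and in 1 of the 2 galactolipid genes, Gal3st1. The sequence TCACNCCAC, searched on both strands, was found in Hmgcs1 and in no other of the 27 members, against 1.44% of all genes. The shorter TCACNCCA, which lies inside it, was found in Hmgcs1, Msmo1 and Srebf2, against 4.97% of all genes. The EGR box GCGTGGGCG, bound by the Schwann cell factor EGR2 among others, was found in Dhcr7 and in no other, against 0.707% of all genes. The Ugt8a window held none of these letters, which describes the window and says nothing about the factors.

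The libraries held between 31274245 and 56809440 counts, and levels are given as CPM, counts over the TMM-scaled library size, on the usual scale of that unit. The time course libraries were unequal in a way that followed transcript length. In 7 of the 8 sham libraries the level relative to the gene's mean was higher the longer the gene's longest annotated transcript, with a Spearman rho between 0.38 and 0.58 over 15453 genes, and in sham day 21 replicate 1 rho was -0.59. In the 9 SNI libraries rho lay between -0.57 and 0.56, and 6 of them were negative. In the second experiment rho over 17462 genes ranged from -0.40 to 0.18. Sham day 21 replicate 1 and SNI day 7 replicate 2 also had the lowest TMM factors, 0.633 and 0.761, and the medians and leading genes of the time course are also given without both. The myelin marker sum (13 Schwann cell genes, Mbp among them) was 234 to 452 CPM in sham and 131 to 446 CPM in SNI libraries. It was 394 to 495 CPM in unamputated and 157 to 274 CPM in amputated digits.

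Per kilobase of transcript, the most abundant member in both experiments was Scd1, the stearoyl-CoA desaturase of sebaceous glands and skin, at a mean of 560 CPM per kb in the time course and 598 in the second experiment. Hmgcs1, which makes the HMG-CoA used for mevalonate, followed at 143 and 168 CPM per kb, beside Fa2h, the fatty acid 2-hydroxylase, at 139 and 175. The lowest was Ugt8a, at 0.270 and 0.241 CPM per kb. Of the 3 galactolipid genes, Fa2h was thus among the 3 most abundant members and Ugt8a the least abundant, with Gal3st1 at 23.2 and 19.4 CPM per kb. The sterol enzymes ranged from Tm7sf2, at 4.79 and 3.86 CPM per kb, up to Hmgcs1. Ldhc was the one sebaceous marker of 9 at 0 in a group, and the sum of the 9 was 1240 to 2230 CPM in the time course and 1820 to 2230 CPM in the second experiment.

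Ugt8a, which encodes the enzyme that makes galactosylceramide, was the member with the largest averaged difference in both experiments, and it was called lower in the second. The sham values at day 7 of the time course were 1.43, 1.67 and 1.01 CPM, and the SNI values 0.681, 0.639 and 0.244 CPM. At day 14 the sham values were 1.12, 1.68 and 1.51 CPM and the SNI values 0.725, 1.98 and 0.982 CPM. At day 21 the sham values were 1.57 and 1.08 CPM and the SNI values 0.316, 0.301 and 0.317 CPM. The SNI and sham libraries did not overlap at days 7 and 21 and overlapped at day 14, where SNI replicate 2 was the highest of all 17 libraries. These levels rest on few reads, 11 to 88 counts a library in the time course and 7 to 70 in the second experiment.

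None of the 34 members was called in any of the 9 comparisons of the time course at an adjusted p under 0.05 (quasi-likelihood test of edgeR, Benjamini-Hochberg over all genes), and percent called over all genes was 0 in each of the 9. For Ugt8a the log2 fold change of SNI against sham was -1.39 ± 0.43 (SE) at day 7, -0.23 ± 0.41 at day 14 and -2.07 ± 0.48 at day 21. Without both libraries of low TMM factor it was -1.51 at day 7 and -1.78 at day 21. Averaged over the 3 days it was -1.23 ± 0.25, with an unadjusted p of 0.000285 and an adjusted p of 0.288 by edgeR. DESeq2, run as an alternative, called it in that average with an adjusted p of 0.00337, and without SNI day 14 replicate 1 the day 14 value turned to 0.04. The difference between days was not called either (adjusted p 0.712 by edgeR). In bulk tissue, fewer cells that express a gene and less RNA of it per cell cannot be told apart, and this holds for every value here. Myelin markers moved with Ugt8a: their sum was 131 to 238 CPM in SNI and 234 to 452 CPM in sham digits at day 7, and 165 to 178 against 381 to 437 CPM at day 21. The sum of 10 Schwann cell identity markers was 49.1 to 135 CPM in SNI and 135 to 199 CPM in sham digits at day 7. At day 21 it was 75.1 to 131 against 53.0 to 134 CPM. The part of both marker sets in the Ugt8a values was not tested.

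In SNI digits of the second experiment Ugt8a was at 1.12, 1.13 and 1.19 CPM in unamputated digits at day 7, and at 0.404, 0.305 and 1.23 CPM in amputated ones. At day 14 the unamputated values were 1.29, 1.99 and 1.25 CPM and the amputated values 0.397, 0.361 and 0.227 CPM. All 3 amputated libraries were below all unamputated ones at day 14, whereas at day 7 amputated replicate 3 was the highest of the 6. Ugt8a fell 4.51-fold at day 14, a log2 fold change of -2.17 ± 0.47 (adjusted p 0.0399 by edgeR). At day 7 the value was -0.84 ± 0.44 (adjusted p 0.397), and over both days it fell 2.84-fold (-1.50 ± 0.32, adjusted p 0.0154). The difference between the days was not called (-1.34 ± 0.64, adjusted p 0.784 by edgeR). The day 14 call held in 4 of 12 fits that left out 1 library each, with adjusted p values of 0.00884 to 0.131 by edgeR, while the averaged call held in all 12. Both calls were lost when the relation of level to transcript length in each library, called the length trend from here on, was added to the fit, an alternative chosen after seeing the data. The values were then -1.85 and -1.31 (adjusted p 0.526 and 0.211 by edgeR). The trend was taken from these same counts and differed between groups. Its rho was -0.04 to 0.18 in unamputated and -0.40 to 0.11 in amputated libraries. A fit with it can take out part of a treatment difference, here and in the time course. The length trend and the treatment thus cannot be told apart by these fits.

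The members called after amputation were few. At day 14, 2 of the 34 were called (Ugt8a and Gal3st1), to be read beside 2.75% of all 17475 genes (1.32% higher and 1.44% lower). Over both days 3 were called (these 2 and Srebf2), beside 11.8% of all genes (5.71% higher and 6.08% lower), and at day 7 none was, beside 1.35% (0.601% higher and 0.75% lower). At day 7, 9 of the 34 had an unadjusted p under 0.05 by edgeR, beside 15.1% of all genes, and DESeq2 called none there. The interaction of amputation with day called none, beside 0% of all genes. It had 4 members at an unadjusted p under 0.05 by edgeR, beside 6.25% of all genes, and none called by DESeq2. The myelin marker sum was 161 to 274 CPM in amputated and 409 to 416 CPM in unamputated digits at day 7, and 157 to 164 against 394 to 495 CPM at day 14. Of the 13 markers, 11 were called lower over both days (6.08% of all genes were), Mbp by 1.44 ± 0.16 on the log2 scale (adjusted p 0.00111 by edgeR). The sum of 10 Schwann cell identity markers was 246 to 281 CPM in amputated and 191 to 247 CPM in unamputated digits at day 7. At day 14 it was 215 to 265 against 228 to 236 CPM. Of these markers Ngfr, Cdh19, Foxd3 and Cdh2 were called higher over both days (5.71% of all genes were) and Scn7a lower. The part of both marker sets in the Ugt8a values was not tested.

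Gal3st1, whose enzyme adds the sulfate to galactosylceramide, went the other way from Ugt8a. In unamputated digits it was at 32.0, 30.6 and 31.9 CPM at day 7 and at 33.6, 36.0 and 28.2 CPM at day 14. In amputated digits it was at 36.2, 41.6 and 35.9 CPM at day 7 and at 43.0, 43.2 and 44.5 CPM at day 14. Every amputated library was above every unamputated one of its day. Gal3st1 rose 1.34-fold at day 14 (log2 fold change 0.42 ± 0.10, adjusted p 0.0433 by edgeR) and by 0.34 ± 0.07 over both days (adjusted p 0.0114), while the day 7 value was 0.27 ± 0.10 (adjusted p 0.216). The day 14 call held in 3 of the 12 fits that left out a library, those without amputated day 7 replicate 1 or 2 or unamputated day 7 replicate 3. The averaged call held in all 12. With the length trend in the fit the values were 0.42 and 0.34 and neither was called (adjusted p 0.443 and 0.120 by edgeR).

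In the time course Gal3st1 stood at 32.4, 35.6 and 32.4 CPM in sham and 31.9, 54.5 and 51.6 CPM in SNI digits at day 7. At day 14 it was at 28.0, 31.5 and 39.5 CPM in sham and 30.9, 57.5 and 55.7 CPM in SNI digits, and at day 21 at 68.2 and 32.4 against 47.9, 50.6 and 59.8 CPM. The groups overlapped on each day, and the highest of the 17 libraries was sham day 21 replicate 1. The averaged log2 fold change was 0.36 ± 0.18 (adjusted p 0.382 by edgeR), and it was -0.01 with the length trend in the fit. It was 0.53 without both libraries of low TMM factor.

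Fa2h did not pass the test in any comparison. Its sham values were 349, 486 and 493 CPM at day 7, 354, 432 and 382 CPM at day 14, and 65.1 and 466 CPM at day 21. After SNI they were 444, 239 and 437 CPM at day 7, 366, 271 and 226 CPM at day 14, and 365, 312 and 184 CPM at day 21. The groups overlapped on every day, and the averaged log2 fold change was -0.19 ± 0.31 (adjusted p 0.725 by edgeR). It was -0.37 without both libraries of low TMM factor, and its sign turned without sham day 21 replicate 2 (0.49) and with the length trend in the fit (0.52).

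In the second experiment Fa2h was at 504, 472 and 407 CPM in unamputated and 472, 542 and 538 CPM in amputated digits at day 7. At day 14 it was at 446, 305 and 373 CPM in unamputated and 344, 493 and 328 CPM in amputated digits. The averaged log2 fold change of 0.11 ± 0.12 (adjusted p 0.564 by edgeR) was within its SE. The 3 galactolipid genes thus showed a called fall, a called rise and no call in the same 12 libraries.

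**Figure D1:**
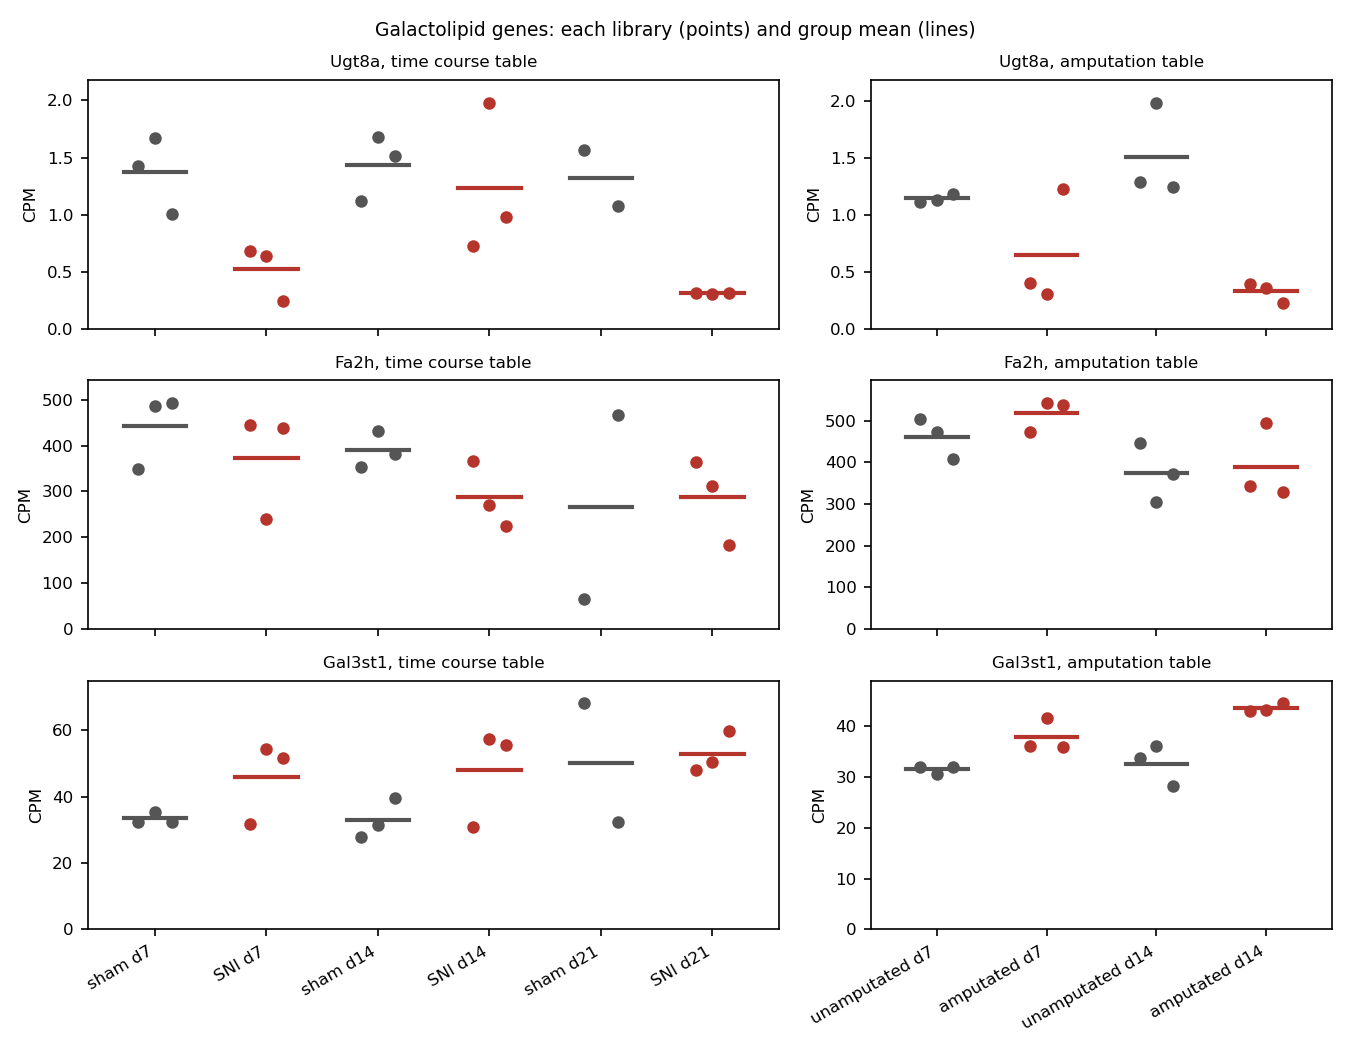
CPM of Ugt8a, Fa2h and Gal3st1 in each library of the time course (left) and of the amputation experiment (right), with d for day; points are libraries, lines are group means, and grey marks sham or unamputated digits. Ugt8a in amputated digits at day 14 lies between 0.227 and 0.397 CPM, below all unamputated libraries, and Gal3st1 lies between 43.0 and 44.5 CPM, above them.

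Of 21 other sphingolipid genes, a list that covers ceramide synthesis and the breakdown of galactolipids, 2 were called higher and 2 lower over both days after amputation, where 5.71% of all genes were called higher and 6.08% lower. Arsa, whose enzyme removes the sulfate from sulfatide, rose by 0.54 ± 0.07 on the log2 scale (adjusted p 0.00111 by edgeR) and was also called at day 7 (0.62 ± 0.10) and day 14 (0.47 ± 0.10). Its values were 14.1, 16.0 and 14.5 CPM in unamputated and 24.0, 23.2 and 21.2 CPM in amputated digits at day 7. At day 14 they were 15.2, 15.3 and 16.1 CPM against 20.6, 20.8 and 23.1 CPM. The groups did not overlap on either day. Psap, the precursor of the saposins that help lysosomal enzymes reach sphingolipids, rose by 0.23 ± 0.05 (adjusted p 0.0196), and the ceramide synthase gene Cers3 fell by 0.19 ± 0.05 (adjusted p 0.0447). Ugcg, which makes glucosylceramide and not galactosylceramide, was the other gene called lower, at -0.23 ± 0.07. Differentiated epidermis markers fell, as Cers3 and Ugcg did and Arsa and Psap did not. Of 12 tested, 5 were called lower over both days, where 6.08% of all genes were, Krt1 by 0.78 ± 0.08. Their part in the sphingolipid values was not tested. None of the 21 was called in the time course.

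At day 7 most sterol genes had a positive log2 fold change of SNI against sham, and none was called. The median log2 fold change of the 18 was 0.44, against 0.02 over all genes, and 17 of the 18 were positive. It was 0.12 at day 14 (13 of 18 positive, median of all genes 0.03) and -0.17 at day 21 (3 of 18 positive, median of all genes -0.10). Without both libraries of low TMM factor the medians were 0.26 at day 7 and 0.19 at day 21. With the length trend in the fit the day 7 median was -0.02 and the day 14 median -0.26. SNI day 7 replicate 2 was the highest of all 17 libraries for 9 of the 18, and markers of other cell types stood high in it too. Its summed neutrophil markers were at 13500 CPM, against 75.7 and 144 CPM in the other SNI libraries of that day and 21.3 to 49.4 CPM in sham. Its macrophage sum was 2360 CPM, against 526 to 614 and 435 to 605 CPM, and its adipocyte sum 1180 CPM, against 261 to 478 and 153 to 223 CPM. No marker of these 3 lists in the table was at 0 in either group, and their part in the sterol values was not tested.

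Idi1, the isopentenyl diphosphate isomerase, had the largest of these differences. It stood at 154, 306 and 413 CPM in sham and 458, 1188 and 606 CPM in SNI digits at day 7, with no overlap. Idi1 was the only one of the 18 sterol genes so placed at that day, beside 13.7% of all 16084 genes. The log2 fold change was 1.37 ± 0.44 (adjusted p 0.301 by edgeR), 0.90 without SNI day 7 replicate 2 and sham day 21 replicate 1, and 0.66 with the length trend. At day 14 Idi1 was at 276, 298 and 259 CPM in sham and 274, 384 and 317 CPM in SNI digits. At day 21 it was at 732 and 270 against 253, 362 and 412 CPM. Of its 50-base stretches, 21.3% are shared with other gene models, Gm13502 first, so its level is uncertain.

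Msmo1 and Tm7sf2, which act on the sterol ring after lanosterol, followed Idi1 in order of p at day 7. Msmo1 was at 222, 305 and 357 CPM in sham and 327, 799 and 510 CPM in SNI digits (log2 fold change 0.89 ± 0.39, adjusted p 0.301 by edgeR). Tm7sf2 was at 8.66, 11.0 and 14.0 CPM in sham and 13.4, 35.4 and 20.7 CPM in SNI digits (1.05 ± 0.47, adjusted p 0.301). Acat2, the cytosolic thiolase at the start of the pathway, was at 74.8, 99.1 and 121 against 102.5, 189 and 134 CPM (0.53 ± 0.24), and 45.9% of its 50-base stretches are shared with other models, Acat3 first. In all 3, SNI replicate 1 lay within the sham range and SNI replicate 2 was the highest. Without both libraries of low TMM factor the values were 0.54 for Msmo1, 0.64 for Tm7sf2 and 0.30 for Acat2. With the length trend in the fit the values of Msmo1 and Tm7sf2 were 0.09 and 0.07.

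At the later days the sterol genes with the smallest p were also uncalled. Hmgcs1 was at 619, 592 and 567 CPM in sham and 531, 512 and 356 CPM in SNI digits at day 14, without overlap (log2 fold change -0.35 ± 0.24, adjusted p 0.578 by edgeR). Ebp, the sterol isomerase, was at 62.3, 68.5 and 66.0 CPM in sham and 62.7, 100.4 and 106 CPM in SNI digits at day 14. Tm7sf2 was at 8.64, 9.02 and 8.06 CPM in sham and 8.40, 15.4 and 14.5 CPM in SNI digits at day 14 (0.57 ± 0.47). At day 21 Ebp was at 192 and 66.0 CPM against 68.8, 96.1 and 103 CPM. The day 21 comparison holds 2 sham libraries that differed from each other more than the groups did: Sc5d, the sterol C5 desaturase, was at 119 and 53.7 CPM in them and at 45.3, 56.97 and 91.6 CPM after SNI. Fdft1, the squalene synthase, was at 261 and 140 against 110, 151 and 187 CPM, and part of its exons (18.3%) lies opposite Ctsb.

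**Figure D2:**
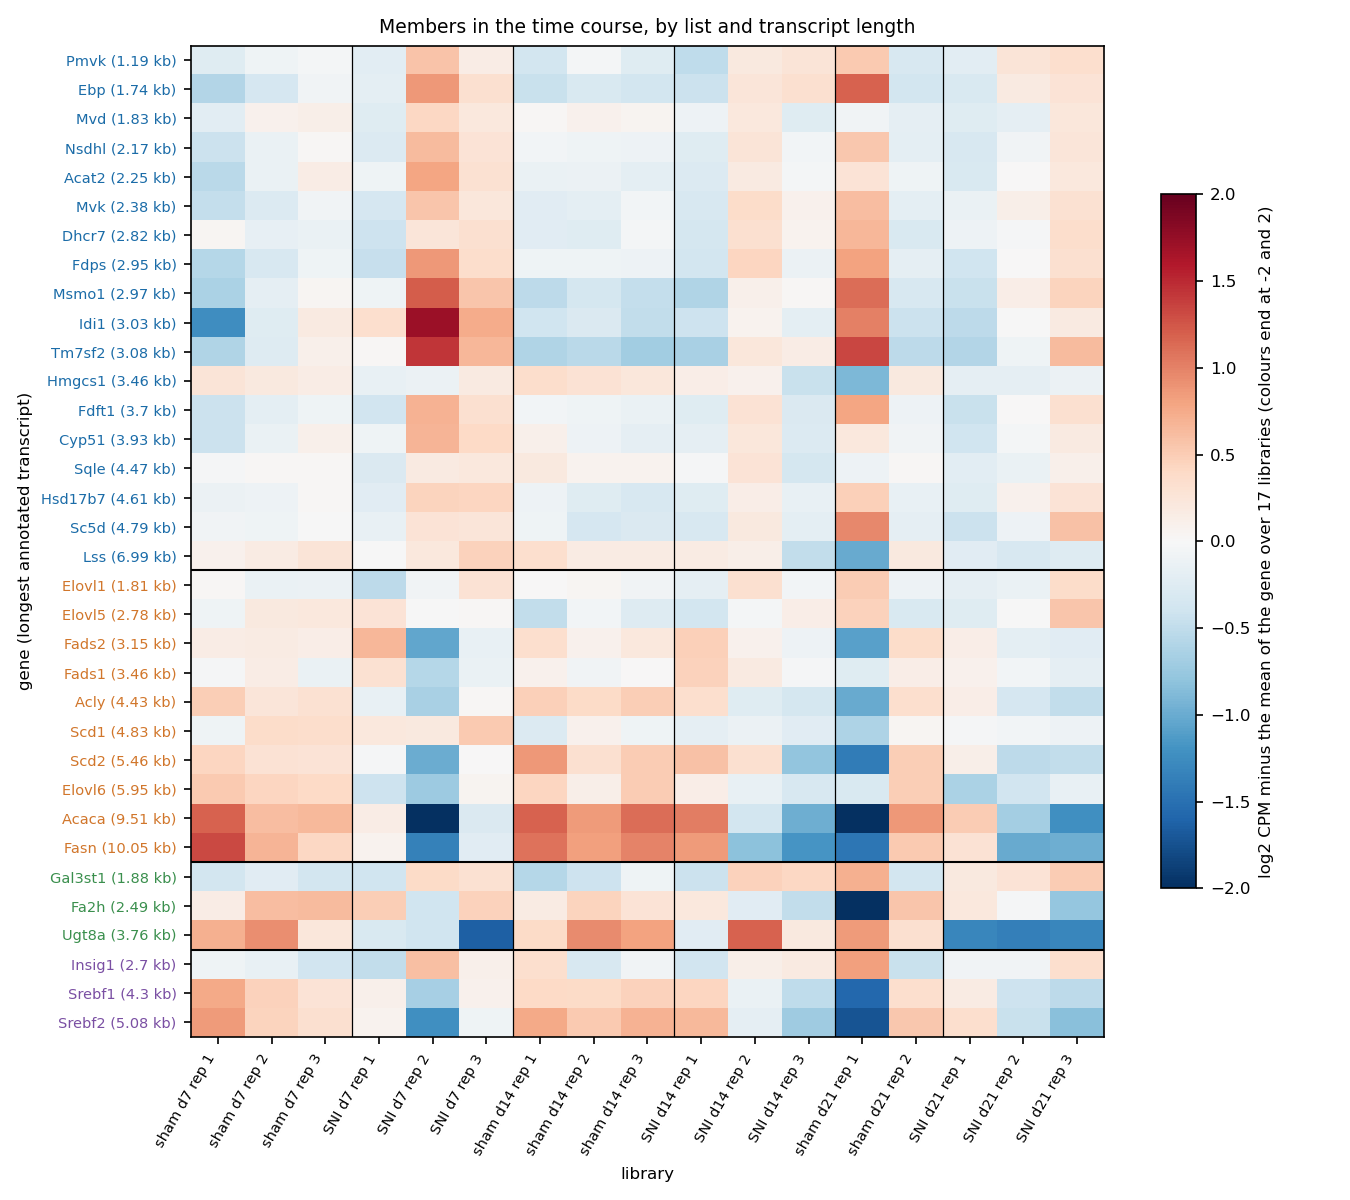
Log2 CPM of each member minus its mean over the 17 time course libraries (colour), with genes ordered by list and then by transcript length and libraries by group; d is the day and label colours mark sterol (blue), fatty acid (orange), galactolipid (green) and regulator (purple). Sham day 21 replicate 1 and SNI day 7 replicate 2 are red over most sterol genes and blue over long fatty acid genes such as Acaca and Fasn, while Ugt8a is blue in all SNI day 21 libraries.

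Fatty acid genes lay on the other side at days 7 and 14. Their median log2 fold change was -0.37 at day 7 (8 of 10 negative), -0.26 at day 14 (7 of 10 negative) and -0.07 at day 21, and -0.20 averaged over the days. At day 21 the sterol median was negative too, and the median of all genes was -0.10. At day 7, 5 of the 10 had all SNI libraries below all sham libraries (Acly, Acaca, Fasn, Scd2 and Elovl6). The groups lay apart in that direction for 23.8% of all 16084 genes, of which 0% were called. Differentiated epidermis markers were also lower in every SNI library of that day, with sums of 53200 to 60900 CPM against 80900 to 92800 CPM in sham (11 of 13 markers in the table), and their part was not tested. With the length trend in the fit the day 7 median was 0.02. Without both libraries of low TMM factor it was -0.12 at day 7 and -0.50 at day 21.

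Elovl6, which lengthens palmitate to stearate, was the fatty acid gene with the smallest p in the average. It was at 808, 758 and 739 CPM in sham and 419, 339 and 585 CPM in SNI digits at day 7. Its day 14 values were 755, 607 and 795 CPM against 615, 506 and 450 CPM, and its day 21 values 457 and 793 against 362, 429 and 506 CPM. The groups overlapped at days 14 and 21. The averaged log2 fold change was -0.59 ± 0.15 (adjusted p 0.337 by edgeR). DESeq2 called it with an adjusted p of 0.0190, with the length trend the value was -0.46, and without both libraries of low TMM factor it was -0.64.

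Fasn, the fatty acid synthase, and Acaca, the acetyl-CoA carboxylase before it, have the longest transcripts of the set, 10.05 and 9.51 kb. Fasn was at 596, 383 and 319 CPM in sham and 251, 94.4 and 204 CPM in SNI digits at day 7, at 508, 422 and 477 against 432, 136 and 106 CPM at day 14, and at 87.8 and 346 against 292, 120 and 121 CPM at day 21. The averaged log2 fold change was -0.86 ± 0.36 (adjusted p 0.338 by edgeR), -0.97 without both libraries of low TMM factor, -0.43 without sham day 21 replicate 2, and -0.05 with the length trend in the fit. Acaca ranged from 9.42 CPM in sham day 21 replicate 1 and 11.9 in SNI day 7 replicate 2 to 119 CPM in sham day 14 replicate 1, and 52.6% of its 50-base stretches are shared with other models, Gm5182 first. Acly, which supplies cytosolic acetyl-CoA to both pathways, was at 338, 284 and 298 CPM in sham and 218, 153 and 245 CPM in SNI digits at day 7 (-0.58 ± 0.31). At day 14 it was at 333, 314 and 337 against 303, 203 and 190 CPM (-0.50 ± 0.31), with no overlap on either day, and averaged over days at -0.37 ± 0.19 (adjusted p 0.378 by edgeR). Its averaged value was -0.47 without both libraries of low TMM factor, -0.09 without sham day 21 replicate 2 and 0.05 with the length trend.

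Members with longer transcripts tended to have lower log2 fold changes in SNI against sham digits, except at day 21, and in amputated against unamputated digits. Over the 34, Spearman's rho between the log2 fold change and the length of the longest transcript was -0.54 at day 7, -0.64 at day 14 and -0.63 in the average of SNI against sham, and -0.04 at day 21. For amputated against unamputated digits it was -0.41 at day 7 and -0.56 at day 14. Comparisons between days were mixed, from -0.58 for sham day 21 against day 7 to 0.32 for SNI day 14 against day 7. The points share libraries and genes, and the values are a description. The median length was 3.00 kb for sterol genes (1.19 to 6.99 kb) and 4.63 kb for fatty acid genes (1.81 to 10.05 kb). Ugt8a, at 3.76 kb, had the lowest value of the 34 in both averages. With the length trend in the fit its value averaged over days of SNI was -1.41, and it was less negative in the amputation experiment, as given above.

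**Figure D3:**
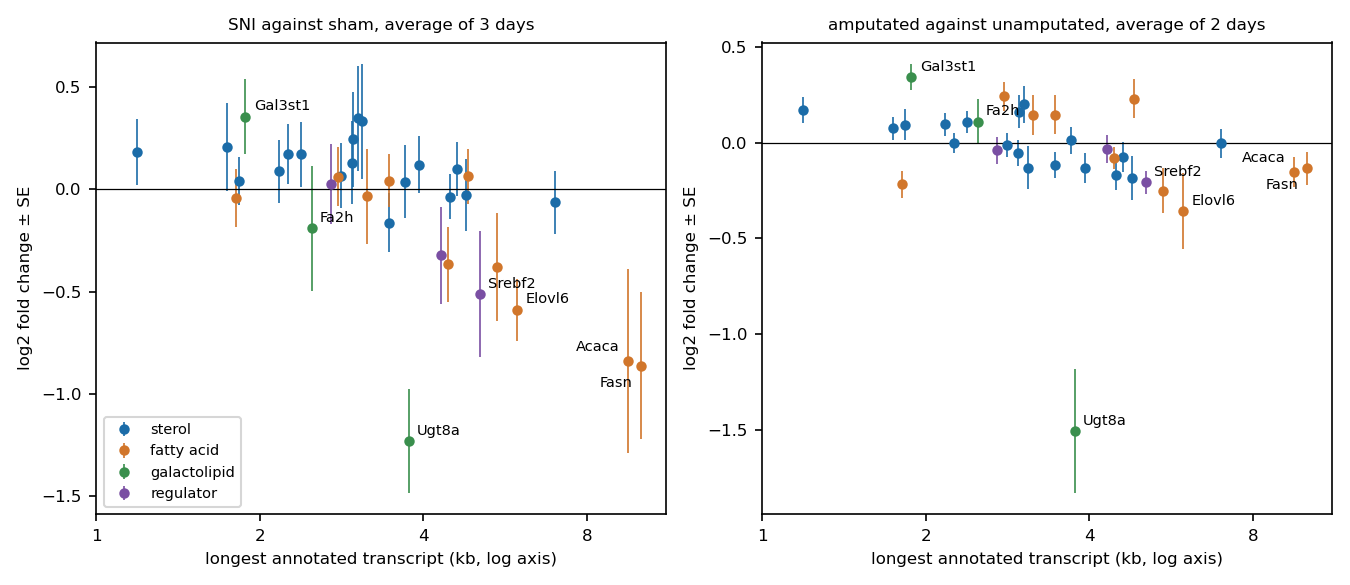
Log2 fold change (± SE) of each member against the length of its longest annotated transcript (kb, log axis), for SNI against sham averaged over 3 days and for amputated against unamputated SNI digits averaged over 2 days. Points run downward with length in both panels, and Ugt8a lies apart at -1.23 and -1.50.

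After amputation no sterol gene was called. Their median log2 fold change was -0.12 at day 7 (13 of 18 negative), 0.14 at day 14 (13 of 18 positive) and -0.003 over both days. In the interaction with day 17 of the 18 were positive, with a median of 0.18, against 0.001 over all genes, and none was called. The 18 genes were measured in the same libraries, so their signs are not independent. Mvk, the mevalonate kinase, had the smallest interaction p among them, with a value of 0.36 ± 0.11 (adjusted p 0.757 by edgeR). It was at 85.5, 86.4 and 85.6 CPM in unamputated and 79.2, 77.0 and 88.8 CPM in amputated digits at day 7. Its day 14 values were 80.2, 75.4 and 72.1 against 86.7, 102 and 90.1 CPM, with every amputated library higher (0.29 ± 0.08, adjusted p 0.0646 by edgeR and 0.0221 by DESeq2).

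Pmvk, the kinase after it, was at 109, 89.6 and 96.9 CPM in unamputated and 104, 134 and 118 CPM in amputated digits at day 14 (0.27 ± 0.10, adjusted p 0.113 by edgeR). Lss, which closes the rings to lanosterol, was at 108, 103 and 106 against 142, 114 and 118 CPM (0.24 ± 0.11). At day 7 the order was turned for Lss, at 132, 120 and 108 CPM in unamputated and 96.8, 90.9 and 116 CPM in amputated digits. Idi1, which led the SNI comparison, was at 216, 219 and 190 CPM in unamputated and 261, 195 and 268 CPM in amputated digits at day 7. The day 14 values were 228, 169 and 185 against 216, 245 and 201 CPM, with overlap on both days (averaged 0.20 ± 0.10, adjusted p 0.183 by edgeR). In all, 6 of the 18 (Mvk, Fdps, Fdft1, Lss, Nsdhl and Ebp) had all amputated libraries above all unamputated ones at day 14, as did 15.9% of all 17475 genes, and none of the 6 was called (1.32% of all genes were called higher). None of the 18 was so placed at day 7, where 10.4% of all genes were.

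The sterol genes with the smallest p at day 7 were Sqle, Cyp51 and Fdps, all uncalled. Sqle, the squalene epoxidase, was at 236, 237 and 223 CPM in unamputated and 160, 187 and 228 CPM in amputated digits (-0.28 ± 0.11, adjusted p 0.251 by edgeR). Cyp51, the lanosterol demethylase, was at 158, 158 and 137 against 112, 109 and 152 CPM (-0.27 ± 0.11). Fdps, the farnesyl diphosphate synthase, was at 168, 173 and 173 against 133, 131 and 174 CPM (-0.23 ± 0.09). Amputated replicate 3 was the highest amputated library for all 3, and without it Cyp51 (-0.44, adjusted p 0.0293 by edgeR) and Fdps (-0.37, adjusted p 0.0299) were called. Part of the sequence of Fdps (11.7% of its 50-base stretches) is shared with other models.

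Among fatty acid genes after amputation, the elongases Elovl1 and Elovl5 differed in opposite directions and were not called. Elovl1, which makes saturated very long chains for sphingolipids, was at 218, 220 and 241 CPM in unamputated and 168, 196 and 177 CPM in amputated digits at day 7. At day 14 it was at 205, 273 and 233 against 225, 210 and 226 CPM, and over both days the log2 fold change was -0.22 ± 0.07 (adjusted p 0.0600 by edgeR and 0.0294 by DESeq2). Elovl5, which lengthens polyunsaturated chains, was at 77.7, 77.9 and 72.3 against 87.6, 97.4 and 102 CPM at day 7, and at 79.1, 72.6 and 75.9 against 76.2, 102 and 74.6 CPM at day 14. Its averaged value was 0.24 ± 0.08 (adjusted p 0.0588 by edgeR and 0.0372 by DESeq2). Both were free of overlap at day 7 and overlapped at day 14. At day 7, 8.86% of all 17475 genes lay below without overlap, like Elovl1, and 10.4% above, like Elovl5.

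Scd2, a desaturase with nervous tissue among its sites of expression, was at 557, 601 and 514 CPM in unamputated and 364, 357 and 512 CPM in amputated digits at day 7 (-0.44 ± 0.17, adjusted p 0.236 by edgeR). Scd1 was at 3010, 2911 and 2442 against 2919, 3595 and 3722 CPM at day 7, and at 2735, 2308 and 2532 against 2393, 3494 and 2611 CPM at day 14 (averaged 0.23 ± 0.10, adjusted p 0.152 by edgeR). Of their 50-base stretches, Scd1 shares 4.66% with other models, Scd3 first, and Scd2 shares 4.01%, Scd1 first. Fasn was at 641, 602 and 534 against 467, 626 and 650 CPM at day 7. The day 14 values were 549, 645 and 580 against 520, 457 and 526 CPM (-0.24 ± 0.12, adjusted p 0.251 by edgeR), without overlap, and its value was 0.13 with the length trend in the fit. Acaca was at 119, 134 and 118 against 116, 88.1 and 119 CPM at day 14 (-0.20 ± 0.11), and at 0.06 with the length trend. Fads2, the delta-6 desaturase, was at 20.0, 15.2 and 18.0 against 23.4, 18.4 and 21.4 CPM (0.25 ± 0.15, adjusted p 0.320 by edgeR). The median of the 10 genes was -0.05 at day 7 and -0.08 at day 14.

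**Figure D4:**
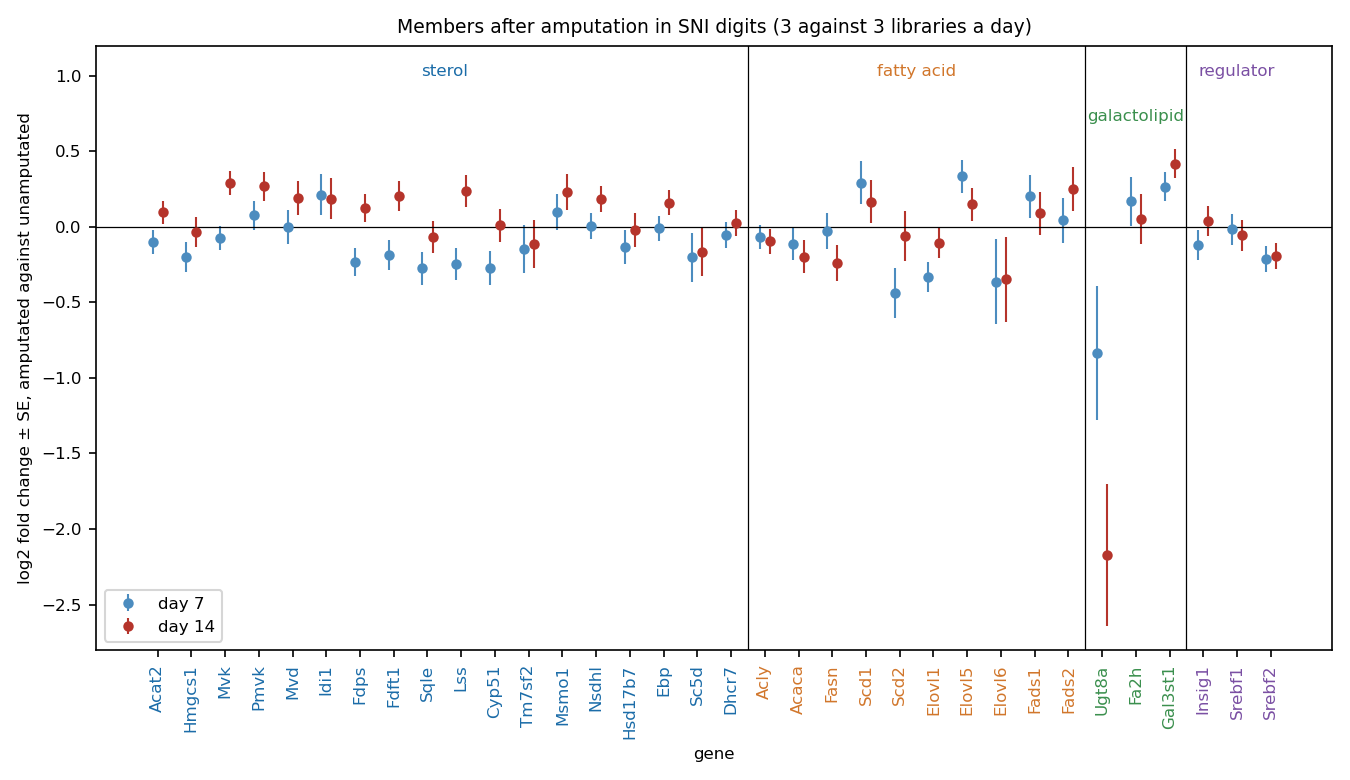
Log2 fold change (± SE) of each of the 34 members in amputated against unamputated SNI digits at day 7 (blue) and day 14 (red), 3 libraries against 3 a day, grouped by list. Ugt8a reaches -2.17 at day 14 and Gal3st1 0.42, while the sterol genes lie between -0.28 and 0.29.

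Among the regulators in the second experiment, Srebf2 was called between amputated and unamputated digits and Insig1 with time. Srebf2 was at 301, 303 and 265 CPM in unamputated and 239, 244 and 266 CPM in amputated digits at day 7, and at 284, 279 and 273 against 258, 215 and 256 CPM at day 14. It fell 1.15-fold over both days (log2 fold change -0.21 ± 0.06, adjusted p 0.0451 by edgeR). The groups overlapped at day 7 by a single pair, unamputated replicate 3 and amputated replicate 3, and did not at day 14. The call held in 3 of 12 fits that left out a library, with adjusted p values of 0.0307 to 0.109 by edgeR. The value was -0.07 with the length trend in the fit (adjusted p 0.664 by edgeR).

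Srebf1 was at 261, 245 and 215 CPM in unamputated and 200.3, 242 and 270 CPM in amputated digits at day 7. At day 14 it was at 229, 228 and 216 against 218, 204 and 225 CPM. The groups overlapped on both days (averaged log2 fold change -0.04 ± 0.07, adjusted p 0.782 by edgeR). In the time course both Srebf genes were lower in every SNI library than in every sham library at day 7, uncalled: Srebf1 was at 250, 201 and 178 against 157, 92.5 and 156 CPM, and Srebf2 at 257, 193 and 178 against 150, 60.8 and 133 CPM. Of all 16084 genes, 23.8% were so placed at that day. At day 14 Srebf1 was at 194, 192 and 202 against 197, 134 and 103 CPM, and Srebf2 at 240, 204 and 229 against 223, 126 and 87.1 CPM. At day 21 Srebf1 was at 49.5 and 185 against 164, 110 and 103 CPM, and Srebf2 at 43.0 and 206 against 179, 104 and 79.8 CPM. The averaged log2 fold changes were -0.32 ± 0.24 and -0.51 ± 0.31 (adjusted p 0.500 and 0.434 by edgeR), and -0.46 and -0.64 without both libraries of low TMM factor. These 2 genes have transcripts of 4.30 and 5.08 kb and both were lowest of all 17 libraries in sham day 21 replicate 1.

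Insig1 was called with time and in no comparison of amputated with unamputated digits. It was at 93.1, 71.7 and 76.6 CPM in amputated digits at day 7 and at 124, 112 and 123 CPM at day 14. It rose 1.49-fold (log2 fold change 0.58 ± 0.10, adjusted p 0.0181 by edgeR), the 1 member of 34 called in that comparison, beside 0.607% of all genes (0.578% higher and 0.0286% lower). In unamputated digits it was at 85.7, 90.3 and 86.1 CPM at day 7 and at 125, 104 and 122 CPM at day 14, also without overlap, with a value of 0.42 ± 0.10 (adjusted p 0.187 by edgeR and 0.0356 by DESeq2). No member was called there by edgeR, beside 0.303% of all genes, with 2 members at an unadjusted p under 0.05, beside 4.97% of all genes. The change over time was not shown to differ between amputated and unamputated digits (0.16 ± 0.14, adjusted p 0.840 by edgeR). The call in amputated digits was lost without amputated day 7 replicate 2 or 3 or amputated day 14 replicate 1 or 3 (adjusted p 0.0625 to 0.101 by edgeR), and with the length trend (0.53, adjusted p 0.130).

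Other members with the smallest p over time in amputated digits were Fdps, at 133, 131 and 174 CPM at day 7 and 183, 180 and 188 CPM at day 14 (0.33 ± 0.09, adjusted p 0.163 by edgeR, and 0.48, adjusted p 0.0493, without amputated day 7 replicate 3), and Fdft1, at 106, 102 and 134 against 142, 140 and 143 CPM (0.31 ± 0.10). Of the 18 sterol genes, 16 were positive from day 7 to day 14 in amputated digits (median 0.13) and 4 in unamputated ones (median -0.08). The medians of all genes were 0.001 and -0.008. In the time course Insig1 was at 103, 98.5 and 84.1 CPM in sham and 77.7, 167 and 118 CPM in SNI digits at day 7. It was at 138, 88.3 and 104 against 83.8, 119 and 125 CPM at day 14, and at 193 and 80.7 against 104, 104 and 138 CPM at day 21. The groups overlapped on each day, and the averaged log2 fold change was 0.03 ± 0.20 (adjusted p 0.943 by edgeR), or 0.19 without both libraries of low TMM factor.

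Between day 7 and day 14 after SNI in the time course, all 18 sterol genes had a negative log2 fold change (median -0.30), against a median of 0.04 over all genes, and none was called. Without both libraries of low TMM factor, one of them SNI day 7 replicate 2, 17 of the 18 were negative and the median was -0.11. Idi1 was at 458, 1188 and 606 CPM at day 7 and 274, 384 and 317 CPM at day 14 (-1.21 ± 0.44, adjusted p 0.876 by edgeR), a value of -0.75 without those libraries. In sham digits 9 of the 18 were negative over the same days. Ugt8a had the opposite sign over these days of SNI (1.23 ± 0.43, adjusted p 0.876). In all, 3 members had an unadjusted p under 0.05 by edgeR there, beside 3.03% of all genes, and DESeq2 called none. From day 7 to day 21 no member was called in sham or in SNI digits. Each comparison had 1 member at an unadjusted p under 0.05 by edgeR, beside 20.3% of all genes in sham and 3.87% in SNI digits. The sham comparison turned on its 2 day 21 libraries: without replicate 2, leaving replicate 1 alone and assumed to vary like the other groups, 20 of the 34 members were called, beside 50.7% of all genes. The interaction of SNI with day called 6 members without that same library, beside 20.6% of all genes.

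Of 18 other sterol genes, of uptake, transport and regulation, 3 were called higher and 1 lower over both days after amputation (5.71% and 6.08% of all genes were), none on either day alone. Mbtps1, the site-1 protease that releases SREBP, rose by 0.19 ± 0.05 (adjusted p 0.0214 by edgeR). Nr1h3, the sterol sensor LXR alpha that is abundant in macrophages, rose by 0.70 ± 0.17 (adjusted p 0.0246), and Stard4, a cholesterol carrier, fell by 0.36 ± 0.10 (adjusted p 0.0336). Of 24 other fatty acid genes tested, 2 were called higher over both days, where 5.71% of all genes were: Thrsp, at 0.81 ± 0.20 (adjusted p 0.0235), and Slc25a1, the citrate carrier of mitochondria, at 0.23 ± 0.06 (adjusted p 0.0244). None of these 42 genes was called in the time course. Among the fatty acid genes, the smallest p in the SNI average belonged to Mlxipl, the carbohydrate sensor ChREBP (-0.82 ± 0.31, adjusted p 0.337 by edgeR).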

How the data were processed

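RNA-seq libraries of mouse digit were analysed from the counts per gene that the authors deposited in separate tables for the time course and the amputation experiment. The genome build was GRCm39, per the submitters' processing notes, and the aligner and counter were not given in the sources used here. Samples were grouped by their treatment and time labels. Genes were filtered with filterByExpr (minimum count 10, minimum total 15), scaled by TMM and tested with edgeR 4.0.16 (robust quasi-likelihood test, R 4.3.3), each table in 1 fit over its groups. P-values were adjusted by Benjamini-Hochberg over all genes of the table, in 15 comparisons, with calls at an adjusted p under 0.05. Log2 fold changes are given with an SE derived from the test, the absolute log2 fold change over the square root of its F statistic. CPM are computed from TMM-scaled library sizes. The labels call the samples of a group biological replicates, and p-values measure the spread between them.

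Of the Ensembl identifiers, 99.4% matched a symbol, and transcript lengths came from the longest transcript in GENCODE (GRCm38), which was used for names, lengths and shared sequence only. The members and all gene lists were chosen with earlier results of these data known. Values in every library are given for the 3 galactolipid genes and the 3 regulators, and in each main comparison for up to 4 called members of the sterol and fatty acid lists or, where none was called, the 3 with the smallest p. Called genes of the related pathway lists, up to 3 a comparison by p, were also named, and a few others (Ugcg, Acat2, Idi1 after amputation) were chosen after their values were seen. Alternatives were DESeq2 1.42.0, RLE scaling, no filter, the replicate number as a block, each library left out, both libraries with a TMM factor under 0.8 left out and, chosen after seeing the data, each library's relation of level to transcript length as a covariate. The fits were also run on simulated counts for the day 7 treatment comparison of each experiment. Those counts were drawn independently and held no length trend, so that run does not cover the trend seen in the libraries.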

Additional observations from a re-analysis of the deposited data

How the results depend on the processing

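RLE scaling, no filter on low counts and, in the time course, the replicate block left every count of called members within 1.5 times its value. DESeq2 called 2 members in the SNI average (Elovl6 and Ugt8a), 5 in the amputation average (Elovl1, Elovl5, Gal3st1, Srebf2 and Ugt8a) and 1 between days of unamputated digits (Insig1). Without a filter Elovl1 was called in the amputation average (adjusted p 0.0437 by edgeR).

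The numbers do not pair the libraries by the criterion that every correlation of same-numbered deviations exceeds 0.1. The correlations were -0.79 to 0.39 in the time course (5 of 8 over 0.1, all 3 of day 14 among them, 4 of 8 best with their own number) and -0.20 to 0.02 in the amputation experiment (0 of 6 over 0.1). With the replicate block the members called by edgeR at day 14 after amputation went from 2 to 0 (Gal3st1 0.42, adjusted p 0.0890, and Ugt8a -2.16, adjusted p 0.0864). In the amputation average the block ended the call of Srebf2 (-0.21, adjusted p 0.0811 by edgeR), and Gal3st1 (0.34, 0.0262) and Ugt8a (-1.53, 0.0340) kept theirs.

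With the length trend 0 members were called at day 14 after amputation, in the amputation average and between days of amputated digits. The trend came from the same counts and differed between treatments, so this fit can also take out part of a treatment difference. The fatty acid medians became 0.016 (SNI day 7), 0.113 (amputation day 14) and 0.085 (amputation average), the sterol medians -0.021 and -0.257 (SNI days 7 and 14) and the galactolipid median 0.026 (SNI day 14). The sign turned in the SNI average for Acly (0.048), Gal3st1 (-0.011) and Fa2h (0.52), and at day 14 after amputation for Fasn (0.13), Acaca (0.064) and Srebf2 (0.028). Without both libraries of low TMM factor the day 21 SNI medians became 0.19 for sterol, -0.50 for fatty acid and -0.69 for galactolipid genes, and the day 7 galactolipid median 0.032.

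Leaving out each library, called members ranged from 0 to 6 for SNI with day and 0 to 20 for sham day 21 against 7, both highest without sham day 21 replicate 2, where 20.6% and 50.7% of all genes were called. They ranged from 0 to 2 at days 7 and 14 after amputation, from 2 to 5 in the average (5 without amputated day 7 replicate 3) and from 0 to 1 between days of amputated digits. The galactolipid medians ranged from -0.39 to 0.032, -0.40 to 0.04 and -0.695 to 0.075 at SNI days 7, 14 and 21, from -0.45 to 0.21 in their average and from -0.15 to 0.20 at day 14 after amputation. At SNI day 21 the sterol median ranged from -0.54 to 0.19 and the fatty acid median from -0.50 to 0.69, and at day 14 after amputation the latter ranged from -0.133 to 0.012. Ugt8a ranged from -0.75 to 0.04 at SNI day 14 and Fa2h from -0.45 to 0.49 in the SNI average. The cause of these shifts was not tested. Groups of 2 or 3 libraries and the low counts of Ugt8a limit the precision.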
